A study of Homo sapiens with 12 samples.

Results

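The genes described here are HLA-DRA, HLA-DRB1, HLA-DQA1, HLA-DQB1, HLA-DPA1, HLA-DPB1, HLA-DMA, HLA-DMB, CD74 and CIITA, the HLA class II genes with their invariant chain and their coactivator. They were taken by name from GENCODE release 44 on GRCh38, and are 10 of the 19959 protein-coding genes with a canonical start site. Every peak that touched one of the gene bodies, or lay within 50 kb of its canonical start site, was assigned to it. Overlapping or touching peaks of the 4 lists were merged into regions, and 63 of the 84577 regions of the genome fell in these windows. The windows overlap and form 6 separate stretches: CIITA on chromosome 16, CD74 on chromosome 5, and on chromosome 6 HLA-DRA, HLA-DRB1 with HLA-DQA1 and HLA-DQB1, HLA-DMA with HLA-DMB, and HLA-DPA1 with HLA-DPB1.

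Dimethylation of lysine 4 on histone H3 (H3K4me2), which marks promoters and enhancers, was profiled by ChIP-seq in U-937 cells, an established human line with monocytic features that the labels class as acute myeloid leukaemia (AML) cells. The cells received DMSO (the vehicle), 0.1 µM all-trans retinoic acid (ATRA), 0.1 µM Corin, or both drugs at 0.1 µM each, and all were taken at 24 h. Each treatment had 2 H3K4me2 libraries and 1 input library, 12 libraries in all, and 1 peak list per treatment was used. The lists give no value per replicate, so no spread between replicates and no test between treatments is available, and every difference below is between single lists from one cell line.

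Class II molecules are pairs of an alpha and a beta chain that show peptides from engulfed proteins to CD4+ T cells. CD74 fills their groove until it is digested, and HLA-DM then exchanges its remnant for other peptides. CIITA does not bind DNA itself; it is recruited to a promoter module of X and Y boxes by RFX and NF-Y, and its own gene has alternative promoters, of which promoter I serves dendritic cells, promoter III lymphocytes and promoter IV the response to interferon-gamma. Monocytic cells can carry class II, and ATRA drives leukaemic cells of this lineage towards maturation. Corin blocks the CoREST complex at both of its enzymes, the demethylase LSD1, which removes H3K4me2, and the histone deacetylases.

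The DMSO, ATRA, Corin and ATRA+Corin lists held 65172, 66385, 73997 and 83969 peaks, which covered 73.4, 83.7, 95.02 and 108.5 Mb. The fragments at a peak summit, solved from fold and p-value in sampled peaks, had a median of 41 to 48 in the 4 lists. This median is taken over called peaks and does not measure library depth, so a part of depth in the length of the lists was not tested. The lists grow from DMSO to ATRA+Corin over the whole genome, and the values of the 10 genes are read beside those of all genes. The start sites of 6 of 8 monocyte and myeloid marker genes were under a DMSO peak, and those of CD14 and FCGR1A were not. Of the markers of other cell types, 2 of 4 B cell genes (CD79A among them) and 1 of 4 T cell genes (CD2) were. None of the 3 erythroid and 3 epithelial genes was. Over all protein-coding genes the share was 47.3% in DMSO, and the difference of the markers from it was not tested.

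Of the 10 genes, 8 have a promoter in the RefSeq table (GRCh38.p14), with 9 promoters in all, and HLA-DRA and CIITA are not among them. The upstream 250 bases of 4 promoters are shown because these genes show the contrast described below: a start site marked in 3 or 4 lists (HLA-DRB1, HLA-DMB, HLA-DMA) against one marked in none (HLA-DQA1). Capitals mark the X box core AGNAAC and the Y box core ATTGG on either strand.
HLA-DRB1, chr6:32589849-32590098, minus strand: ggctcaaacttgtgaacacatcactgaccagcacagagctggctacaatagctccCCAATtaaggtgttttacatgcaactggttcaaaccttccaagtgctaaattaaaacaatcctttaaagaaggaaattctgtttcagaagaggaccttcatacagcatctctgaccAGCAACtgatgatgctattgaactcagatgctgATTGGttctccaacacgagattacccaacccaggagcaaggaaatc
HLA-DQA1, chr6:32637156-32637405, plus strand: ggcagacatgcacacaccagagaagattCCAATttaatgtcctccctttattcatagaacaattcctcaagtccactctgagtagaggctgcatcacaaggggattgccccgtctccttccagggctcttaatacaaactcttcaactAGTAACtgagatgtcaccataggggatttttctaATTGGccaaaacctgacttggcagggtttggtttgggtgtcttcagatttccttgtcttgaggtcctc
HLA-DMB, chr6:32941029-32941278, minus strand: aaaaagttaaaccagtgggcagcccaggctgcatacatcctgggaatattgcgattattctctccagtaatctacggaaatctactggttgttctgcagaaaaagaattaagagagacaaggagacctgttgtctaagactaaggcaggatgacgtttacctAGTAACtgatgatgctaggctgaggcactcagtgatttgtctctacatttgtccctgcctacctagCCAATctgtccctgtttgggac
HLA-DMA, chr6:32953098-32953347, minus strand: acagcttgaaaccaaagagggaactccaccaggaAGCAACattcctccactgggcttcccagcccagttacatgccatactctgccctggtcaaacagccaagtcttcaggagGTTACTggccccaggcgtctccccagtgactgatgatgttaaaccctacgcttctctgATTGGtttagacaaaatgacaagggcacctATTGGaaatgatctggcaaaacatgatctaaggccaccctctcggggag
An X core followed by a Y core 20 to 50 bases later on the same strand was found in 2 of the 9 promoters and in 1.41% of all 35116 promoters of 300 bases in the table. In HLA-DRB1 the X core began 79 bases and the Y core 46 bases upstream of the start. In HLA-DQA1 they began 102 and 68 bases upstream. The spacing of 33 and 34 bases was nearly the same, yet the HLA-DRB1 promoter was touched by a peak in all 4 lists, in DMSO only downstream of the start, and the HLA-DQA1 promoter in none. Taken alone, the Y core was in 7 of 9 promoters (34.6% of all) and the X core in 6 of 9 (42.4% of all). The gamma-activated site TTCNNNGAA was in 1 of 9, HLA-DQA1 (7.66% of all), and neither the interferon response element (3.57% of all) nor the retinoid receptor motif AGGTCA (13.8% of all) was in any of the 9. These letters describe the sequence in this window and do not show binding. The 9 promoters were poorer in CpG than most, with a median of 3 CpG dinucleotides against 14 over all promoters, and a median GC content of 46.3% against 58.7%. One of the 2 HLA-DPA1 promoters, at the canonical start, was the exception with 27 CpG and a GC content of 66.7%.

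The windows of the 10 genes held 33 marked regions in DMSO, 37 in ATRA, 46 in Corin and 58 in ATRA+Corin. The length under a peak was 53.6, 58.8, 82.9 and 94.4 kb in the same order. In a bulk assay, more cells with the mark and more of the mark per cell cannot be told apart. The median window held 3.5, 5, 6 and 8 regions, against 4, 4, 5 and 6 for all protein-coding genes, so the class II windows began slightly below the typical gene and ended above it. By covered length they were shorter throughout: the median was 2.54, 2.93, 6.15 and 7.13 kb, against 5.95, 6.73, 7.65 and 8.48 kb for all genes. Of the 63 regions, 29 were in all 4 lists (46.0%, against 51.2% of all regions), 13 were in ATRA+Corin only (20.6%, against 16.3%), and 7 were in both lists with Corin and in no other (11.1%, against 7.31%).

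**Figure D1:**
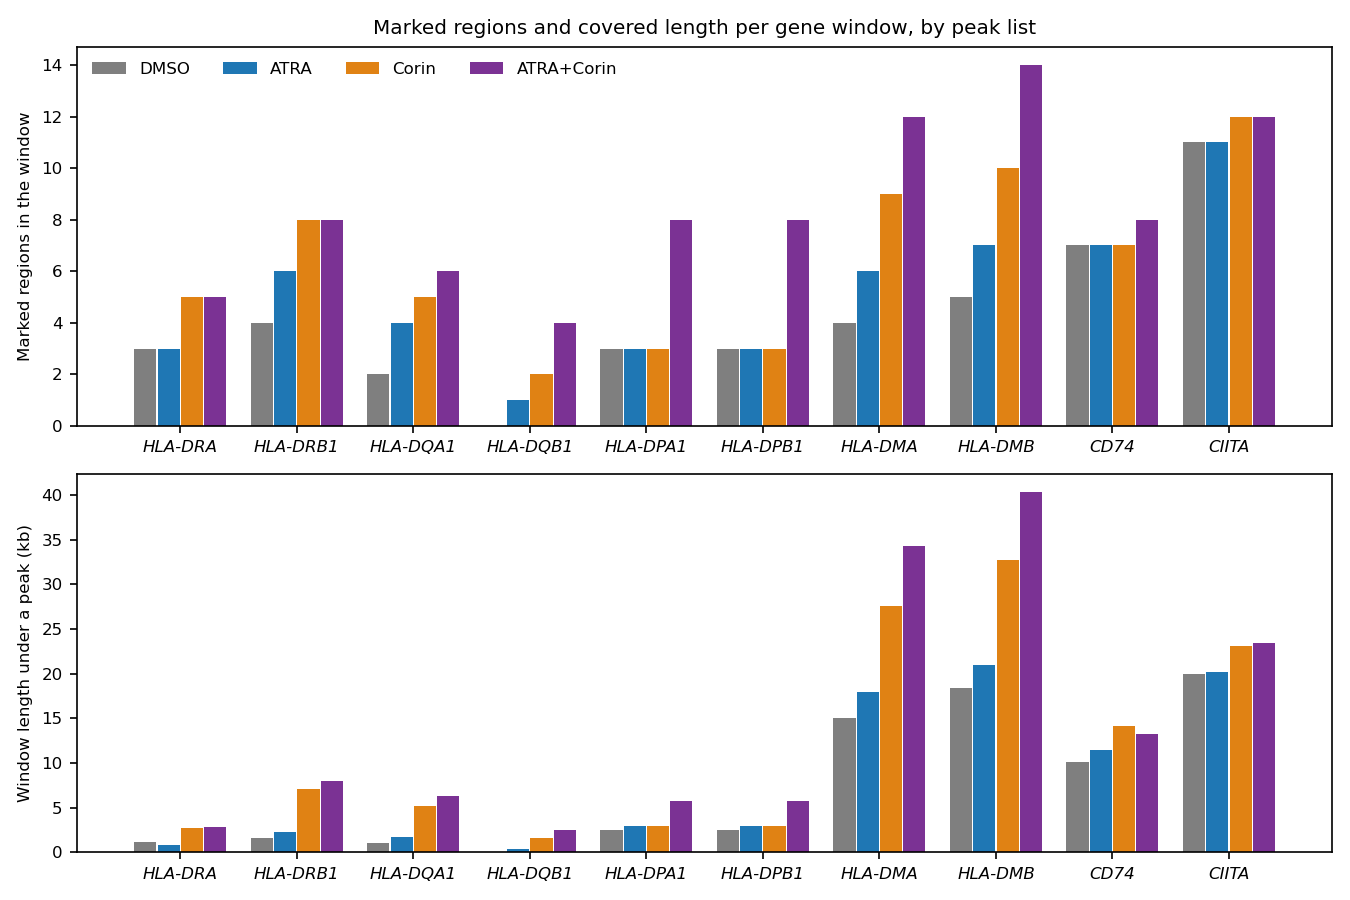
Marked H3K4me2 regions (upper plot, count) and window length under a peak (lower plot, kb) for each gene, with 1 bar per peak list: DMSO grey, ATRA blue, Corin orange, ATRA+Corin purple. The bars are single lists without error. HLA-DMB goes from 5 regions in DMSO to 14 in ATRA+Corin, while CIITA goes from 11 to 12. HLA-DPA1 and HLA-DPB1 share their regions.

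In ATRA+Corin against DMSO, 26 regions were gained (present in the first list and absent from the second) and 1 was lost. The gained regions were 44.1% of the 59 in either list, with a 95% Wilson interval of 32.2% to 56.7% that covers counting error only, and the share over all regions of the genome was 34.9%. The lost share was 1.69%, against 4.55% over all regions. All 10 genes had at least 1 gained region (67.8% of all genes did), and all 10 had more regions gained than lost (62.2% of all genes did). Several of these windows overlap and share regions, so the genes are not separate observations, here or in the comparisons below. The share over all regions lies inside the interval, so at this number of regions the gain near the class II genes was not distinguishable from that of the genome.

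In Corin against DMSO, 15 regions were gained and 2 were lost. The gained share was 31.3% of 48 (interval 19.9% to 45.3%), against 22.4% over all regions, and the lost share was 4.17%, against 7.46%. In ATRA against DMSO, 6 were gained and 2 were lost. These were 15.4% and 5.13% of 39, against 16.4% and 7.58% over all regions. In ATRA, the share of new regions near the class II genes was thus close to that of the genome. Of the genes, 8 had a region gained with Corin (54% of all genes did) and 7 with ATRA (42% of all genes did).

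Against the single drugs, ATRA+Corin gained 21 regions and lost 0 relative to ATRA, and gained 17 and lost 5 relative to Corin. The gained shares were 36.2% of 58 (28.4% over all regions) and 27.0% of 63 (24% over all regions). A count of 0 lost among 58 allows a share of up to 6.21% by the Wilson interval, above the 4.97% over all regions. The lost share against Corin was 7.94% (6.59% over all regions). All 10 genes gained a region against ATRA (63.2% of all genes did) and against Corin (59% of all genes did), and more were gained than lost for 10 genes against ATRA (56.9% of all genes) and for 7 against Corin (49.7% of all genes). These comparisons share lists with those above and are not separate evidence.

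**Figure D2:**
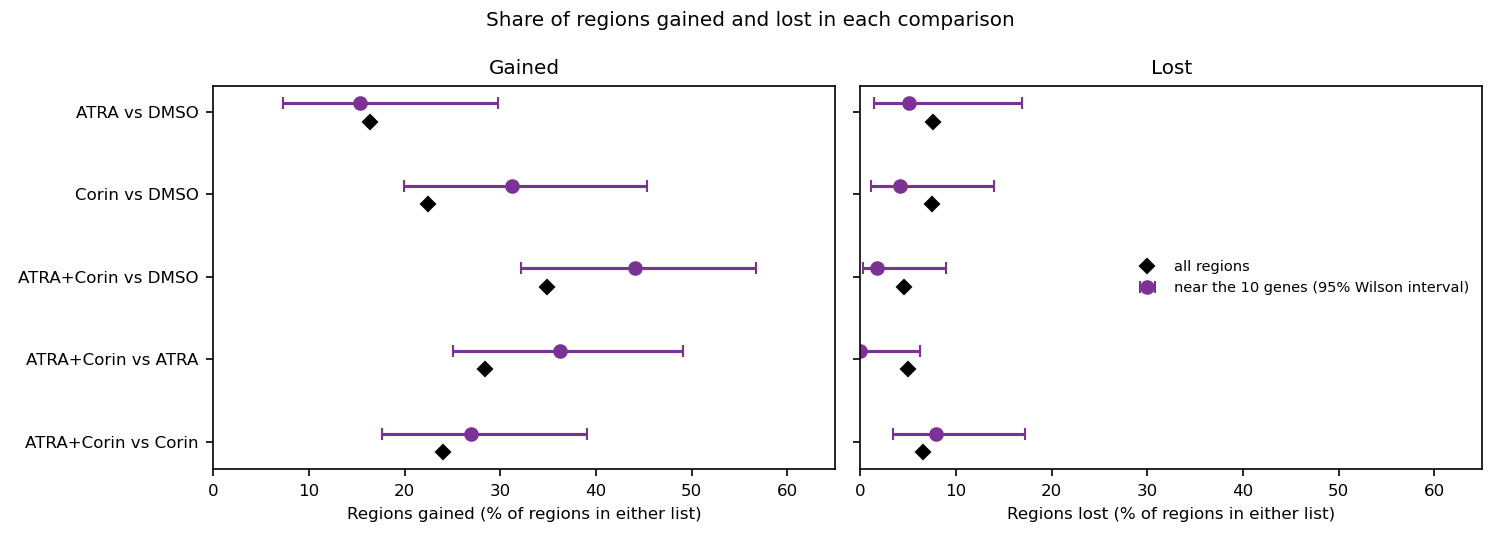
Share of regions gained (left) and lost (right), in percent of the regions present in either list, for the 5 comparisons. Purple points are the regions near the 10 genes with their 95% Wilson interval and black diamonds are all regions of the genome; each diamond lies within the interval beside it, for example 34.9% beside 44.1% for ATRA+Corin against DMSO.

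The gains were uneven over the 6 stretches. Of the 26 regions gained in ATRA+Corin against DMSO, 9 lay around HLA-DMA and HLA-DMB, 7 around HLA-DRB1, HLA-DQA1 and HLA-DQB1, 5 around HLA-DPA1 and HLA-DPB1, 2 around HLA-DRA, 2 around CIITA and 1 around CD74. Of the 26, 3 were within 1 kb of a start site of the 10 genes, those of HLA-DRA and HLA-DPB1. Outside protein-coding and long non-coding RNA genes, the only gene types read here, lay 14 of the 26. The places of all regions gained in this comparison were not counted, so these counts have no genome share beside them. The 26 were mostly modest peaks, with a median −log10 q (the authors' false discovery score) of 5.23, against 4.45 for all regions gained in that comparison. Of the 26, 13 reached 5.

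**Figure D3:**
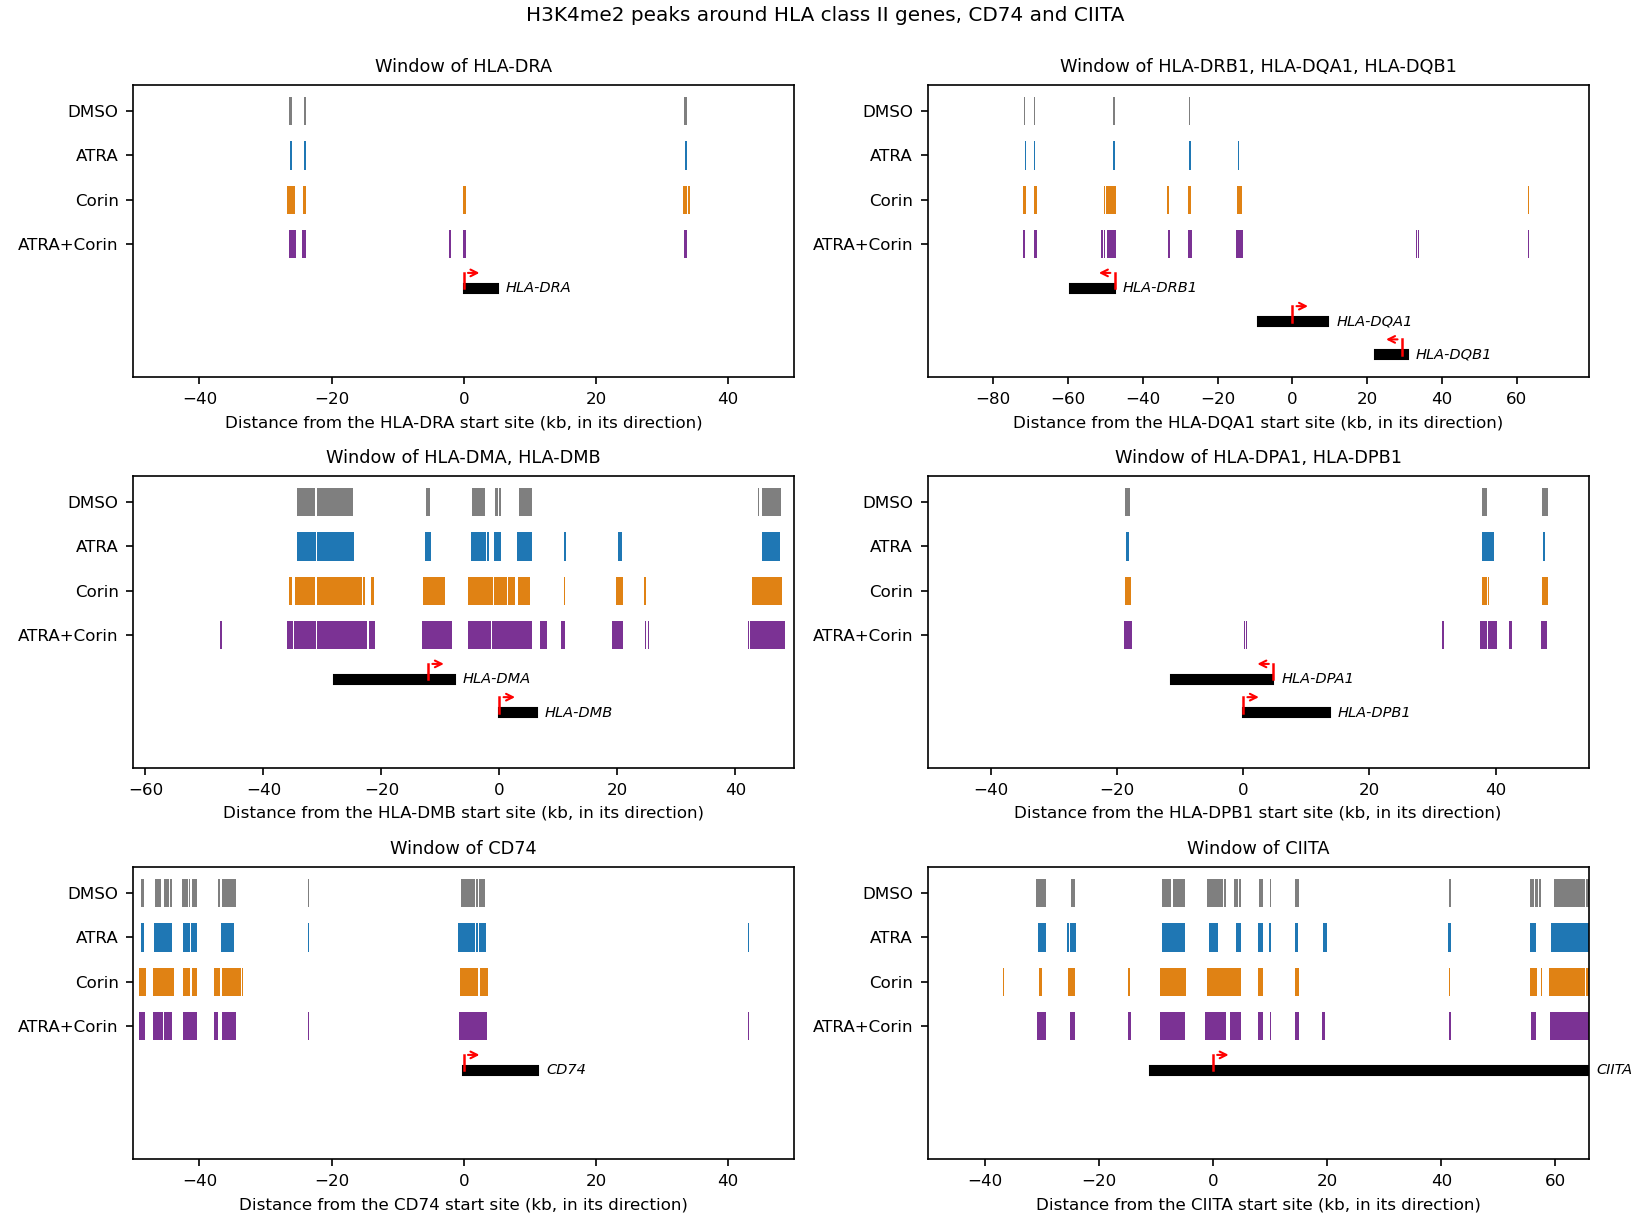
H3K4me2 peaks of the 4 lists (rows, coloured by list) in the 6 stretches, by distance in kb from the start site of the gene named under each plot. Black bars are gene bodies and red arrows their canonical start sites; the stretch of HLA-DMA and HLA-DMB is filled from 18.3 kb in DMSO to 40.4 kb in ATRA+Corin, while HLA-DQA1 has no peak at its start in any list.

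HLA-DMA and HLA-DMB encode the alpha and beta chain of HLA-DM, the peptide exchanger. HLA-DMB lies on chromosome 6 at 32934629 to 32941028 and HLA-DMA at 32948613 to 32969094, both on the minus strand, and their windows join to 112.1 kb. Peaks covered 18.3 kb of this stretch in DMSO, 21.0 kb in ATRA, 32.7 kb in Corin and 40.4 kb in ATRA+Corin, in 5, 7, 10 and 14 regions. No region was lost there in any of the 5 comparisons. The gain in covered length from DMSO to ATRA+Corin was 22.03 kb in the HLA-DMB window and 19.28 kb in that of HLA-DMA, and 0.220% and 0.441% of all protein-coding genes gained as much or more. From DMSO to Corin it was 14.3 and 12.59 kb, and 0.210% and 0.371% of all genes gained as much or more. Among the 10 genes these 2, which share most of their regions, stand furthest from the typical gene.

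Part of the stretch belongs to neighbours. Regions at the starts of other genes, chiefly BRD2, a bromodomain reader of acetylated histones, covered 12.5, 12.5, 16.7 and 17.9 kb in DMSO, ATRA, Corin and ATRA+Corin. The regions at the HLA-DMA and HLA-DMB starts covered 5.87, 7.52, 13.2 and 15.6 kb. The remaining 9 regions, at no start of a protein-coding or long non-coding RNA gene, covered 0, 1.05, 2.81 and 6.88 kb. The stepwise growth is therefore also seen without the BRD2 promoter.

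At the HLA-DMA start site a peak was present in every list. It was 638 bp long in DMSO, 1021 bp in ATRA, 3628 bp in Corin and 5002 bp in ATRA+Corin, with 49, 81, 91 and 159 fragments at the summit. The ATRA+Corin peak was 7.84 times as long as that in DMSO and 4.90 times as long as that in ATRA. Its length lay at the 97.7th percentile of the ATRA+Corin list. It reached mainly into the gene, downstream of the start.

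At the HLA-DMB start site the DMSO list had a 309 bp peak that stopped 1 bp short of the annotated start. The start lay under a peak of 1190 bp in ATRA, 2173 bp in Corin and 6810 bp in ATRA+Corin, with 26, 47, 79 and 145 fragments at the summit from DMSO to ATRA+Corin. The change from unmarked to marked is here a matter of 1 bp, and the change in extent is the larger one. Over the whole region at this start (chromosome 6, 32935451 to 32946391), which is split into 3 to 6 peaks depending on the list, the covered length was 5230, 6498, 9594 and 10592 bp, a ratio of 2.03 between ATRA+Corin and DMSO.

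Beyond the HLA-DMB gene end lay the 3 strongest regions that ATRA+Corin gained over DMSO, all outside protein-coding and long non-coding RNA genes. The strongest, at 32932907 to 32934159, was in the ATRA+Corin list only, with a length of 1253 bp, a −log10 q of 15.3 and 41 fragments at its summit, 6869 bp from the HLA-DMB start. The other two, at 32929765 to 32930608 and at 32920020 to 32921943, were absent from DMSO and present with every drug. The first was 374 bp long in ATRA, 239 bp in Corin and 740 bp in ATRA+Corin. The second was 672, 1211 and 1913 bp long in the same lists. Both were longest with both drugs.

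HLA-DRA and HLA-DRB1 encode the alpha and beta chain of HLA-DR, as a rule the most abundant class II molecule. HLA-DRA (chromosome 6, 32439878 to 32445046, plus strand) had no peak near its start in DMSO or ATRA, where the closest peaks ended 23919 and 23944 bp away. A start peak of 452 bp was present in Corin, with a −log10 q of 3.62 and 23 fragments at the summit. In ATRA+Corin it was 365 bp long, with a −log10 q of 8.84 and 31 fragments. This was the one class II start site that lay under a peak in another list and had no peak within 1 kb in DMSO, and both peaks were weak for their lists, at the 14.9th and 39.5th percentile of −log10 q. A further region 1972 bp upstream of the start, at 32437700 to 32437915, was in the ATRA+Corin list only (−log10 q of 6.12). Over the whole HLA-DRA window the covered length was 1.16, 0.797, 2.76 and 2.82 kb in DMSO, ATRA, Corin and ATRA+Corin, and 54.1% of all genes gained as much or more from DMSO to ATRA+Corin.

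HLA-DRB1 (chromosome 6, 32577902 to 32589848, minus strand) had a 418 bp peak in DMSO that stopped 9 bp short of the start. The start lay under a peak of 505 bp in ATRA, 2253 bp in Corin and 2092 bp in ATRA+Corin. The fragments at the summit were 25, 28, 45 and 68 from DMSO to ATRA+Corin. The background fragments solved for the same peaks were 2.91, 5.81, 4.07 and 13.9. The fold enrichment over input was 5.85, 4.06, 8.33 and 4.46, and so was lower in ATRA+Corin than in DMSO. As at HLA-DMB, the mark was already beside the start in DMSO, and the peaks with Corin extended further into the gene. The region at this start was covered over 418, 505, 2253 and 2281 bp. Within the gene, regions at 32586900 to 32587335 (Corin and ATRA+Corin), 32586349 to 32586696 (ATRA+Corin only) and 32587526 to 32587764 (Corin only) were added, with −log10 q of at most 7.55. HLA-DRB1 resembles HLA-DRB5 and varies between haplotypes, and how the authors placed reads with several matches is not given in the sources used here.

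Between HLA-DRB1 and HLA-DQA1 lay 3 regions outside protein-coding and long non-coding RNA genes. That at 32609442 to 32610449 was in all lists, 593 bp long in DMSO, 656 bp in ATRA, 916 bp in Corin and 1008 bp in ATRA+Corin. That at 32622386 to 32624155 was absent from DMSO and 334, 1375 and 1770 bp long with ATRA, Corin and both. That at 32603991 to 32604670 was also absent from DMSO and 244, 374 and 592 bp long. All 3 were longest with both drugs and second longest with Corin. Over the 176.8 kb joined window of HLA-DRB1, HLA-DQA1 and HLA-DQB1, peaks covered 1.57, 2.32, 7.35 and 8.77 kb, in 4, 6, 9 and 11 regions.

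HLA-DQA1 and HLA-DQB1 encode the chains of HLA-DQ. HLA-DQA1 (chromosome 6, start site 32637406, plus strand) had no peak at its start in any list, and the closest peak was 27008 bp away in DMSO, 14173 bp in ATRA, 13337 bp in Corin and 13251 bp in ATRA+Corin. HLA-DQB1 (start site 32666657, minus strand) likewise had none, with the closest peak at 56259, 43424, 33857 and 3897 bp. The HLA-DQB1 window held 0 regions in DMSO, 1 in ATRA, 2 in Corin and 4 in ATRA+Corin. The strongest region that Corin gained over DMSO near any of the 10 genes was in this window, at 32700494 to 32700711, with a −log10 q of 8.15 in Corin and 6.79 in ATRA+Corin. The HLA-DQ genes thus stayed without a peak at the start while regions at a distance were added. The promoters of HLA-DQA1 and HLA-DQA2 were 84.8% identical and those of HLA-DQB1 and HLA-DQB2 81.1%, against 68.6% for HLA-DRB1 and HLA-DRB5. The limit on reads with several matches therefore holds for the HLA-DQ starts too, and its effect on them was not tested.

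HLA-DPA1 and HLA-DPB1 encode HLA-DP. Their gene bodies overlap on opposite strands, with canonical starts at 33080710 (minus strand) and 33075990 (plus strand), so that they share one window. It held the same 3 regions in DMSO, ATRA and Corin, and 8 in ATRA+Corin. The covered length was 2.54, 2.93, 2.91 and 5.77 kb. All 5 added regions were in the ATRA+Corin list only, and 10.8% of all genes had as large a net gain of regions from DMSO to ATRA+Corin, while 4.54% had it from Corin to ATRA+Corin. They were weak: 2 small peaks of 218 and 165 bp just downstream of the HLA-DPB1 start had a −log10 q of 2.44 and 3.80 with 18 and 21 fragments at the summit, and the highest −log10 q of the 5 was 6.66, at 33118121 to 33118636. The first of these began 82 bp from the HLA-DPB1 start. Neither HLA-DPA1 start in the RefSeq promoters was under a peak in any list.

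CD74 encodes the invariant chain (chromosome 5, 150401637 to 150412969, minus strand), and its start was under a strong peak in every list. The peak was 2120 bp long in DMSO, 2482 bp in ATRA, 2775 bp in Corin and 4245 bp in ATRA+Corin, with 97, 152, 133 and 188 fragments at the summit. Its length in ATRA+Corin was 2.00 times that in DMSO, but the region held 3 peaks in DMSO and 1 in ATRA+Corin, and the covered length of the region was 3314, 3784, 4101 and 4245 bp, a ratio of 1.28. The window held 7 regions in DMSO, ATRA and Corin and 8 in ATRA+Corin, and the covered length was 10.1, 11.5, 14.2 and 13.2 kb. The difference from DMSO to Corin was 4.10 kb, mostly outside the start region, and 13.7% of all genes gained as much or more. CD74 was the one window of the 10 with less covered in ATRA+Corin than in Corin, with a difference of -0.976 kb. A small region at 150436294 to 150436550, upstream of CD74, was in the other lists but not in Corin (−log10 q of 11.04 in DMSO). One at 150449822 to 150450755, beside the start of the ribosomal protein gene RPS14, was missing only from ATRA and reached a −log10 q of 19.8 in ATRA+Corin.

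CIITA (chromosome 16, 10866222 to 10943021, plus strand) was marked in every list. Its canonical start site at 10877202 lay under a peak of 2744 bp in DMSO, 1662 bp in ATRA, 6070 bp in Corin and 3699 bp in ATRA+Corin, with 99, 86, 103 and 132 fragments at the summit. The region around it (10875864 to 10882170) was covered over 4023, 2580, 6070 and 5694 bp. Of the 5 genes with such a region in both lists, CIITA was the one whose covered length was shorter in ATRA than in DMSO, with a ratio of 0.641, and in Corin it was 1.51 times that in DMSO. The whole window held 11, 11, 12 and 12 regions over 19.95, 20.2, 23.1 and 23.5 kb, and 31.8% of all genes gained as much covered length or more from DMSO to ATRA+Corin.

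The 20 annotated CIITA transcripts begin in 9 groups of start sites, of which the first 3 were set beside promoters I, III and IV by their order alone; the transcripts of the GENCODE basic set use the second group only. The first group, 10980 bp upstream of the canonical start, was not under a peak in any list, and the closest peak was 1965 bp away in DMSO, 1944 bp in ATRA, 1659 bp in Corin and 1704 bp in ATRA+Corin. That peak belongs to a strong region between the first and second group, at 10867919 to 10872439, which was covered over 3786, 4174, 4521 and 4346 bp. The second group holds the canonical start and was marked in all lists. The third group, a single start at 10878969, 1767 bp downstream of the canonical one, fell in a gap between peaks 38 bp from the nearest in DMSO, was 853 bp from the nearest in ATRA, and lay under the start peak in Corin and in ATRA+Corin. The third start was thus under a peak only in the lists with Corin, by a margin of 38 bp against DMSO, and no file identifies it as promoter IV. Which promoter made RNA was not measured in these files.

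**Figure D4:**
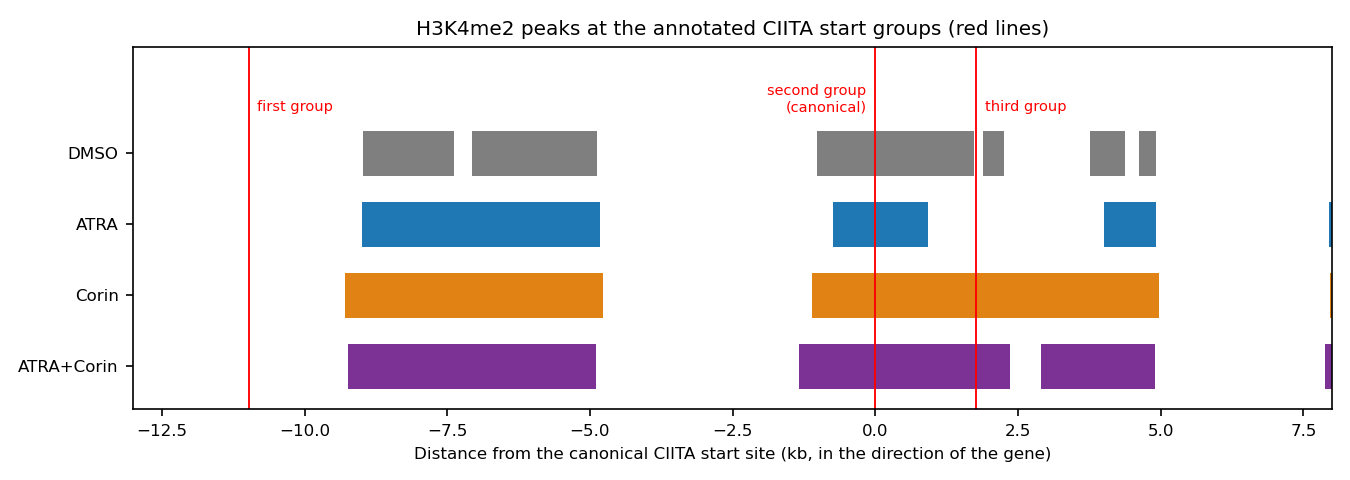
H3K4me2 peaks of the 4 lists (rows) around the CIITA start sites, by distance in kb from the canonical start; red lines are the first 3 groups of annotated starts. The canonical start is under a peak in every list, the first group in none, and the third group, 1767 bp downstream, in Corin and ATRA+Corin.

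A gained region in a CIITA intron, at 10896370 to 10897176, was in ATRA (−log10 q of 7.38) and ATRA+Corin (2.54) and in neither list without ATRA. It was the strongest region that ATRA gained over DMSO near any of the 10 genes. Near the end of CIITA, a small region at 10934400 to 10934933 was in DMSO and Corin (−log10 q of 2.96 and 5.49) and in neither list with ATRA, and was the 1 region lost in ATRA+Corin against DMSO. These weak regions divided the lists by ATRA, but other weak regions of the window did not. One at 10862266 to 10862822 was in Corin and ATRA+Corin only (−log10 q of 2.48 and 7.55). One at 10887074 to 10887408 was missing only from Corin. The start peaks of CIITA were longest in the lists with Corin. The strong region at the gene's 3′ end (10936106 to 10946730) covers the starts of the neighbours DEXI and CLEC16A and was present in all lists.

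Across the 10 genes, 3 start sites were under a peak in DMSO, 5 in ATRA, 6 in Corin and 6 in ATRA+Corin, while over all protein-coding genes the share was 47.3%, 48.1%, 38% and 38%. The 6 were HLA-DRA, HLA-DRB1, HLA-DMA, HLA-DMB, CD74 and CIITA. With Corin, 3 class II start sites were newly under a peak (2.31% of all genes) and 0 were no longer so (11.6% of all genes). With ATRA+Corin the counts were the same 3 (2.69% of all genes) and 0 (11.9% of all genes), and with ATRA 2 (4.69% of all genes) and 0 (3.89% of all genes). Against ATRA, the combination had 1 start newly under a peak, that of HLA-DRA (1.99% of all genes), and 0 no longer so (12% of all genes), and against Corin 0 and 0 (5.62% of all genes each). With a peak allowed within 1 kb of the start, the counts were 5, 5, 6 and 7, since HLA-DRB1 and HLA-DMB had DMSO peaks 9 bp and 1 bp from their starts. The additions to DMSO under that rule were HLA-DRA in Corin and ATRA+Corin, and HLA-DPB1, by the weak peak 82 bp from its start, in ATRA+Corin. A start peak at least 2 times as long was found in ATRA+Corin against DMSO for 2 of the 3 genes marked in both, HLA-DMA and CD74 (9.58% of all genes so tested), in Corin against DMSO for HLA-DMA and CIITA (5.81%), in ATRA+Corin against ATRA for 4 of 5 (5.52%), in ATRA+Corin against Corin for 1 of 6, HLA-DMB (4.82%), and in ATRA against DMSO for 0 of 3 (4.03%). These calls depend on how a region is split into peaks. By covered length of the start region, the ratios in the same comparisons were 7.84 for HLA-DMA and 1.28 for CD74. They were 5.69 for HLA-DMA and 1.51 for CIITA in Corin against DMSO. Against ATRA they were 4.52 for HLA-DRB1, 4.90 for HLA-DMA, 1.63 for HLA-DMB and 2.21 for CIITA. Against Corin the ratio was 1.10 for HLA-DMB.

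**Figure D5:**
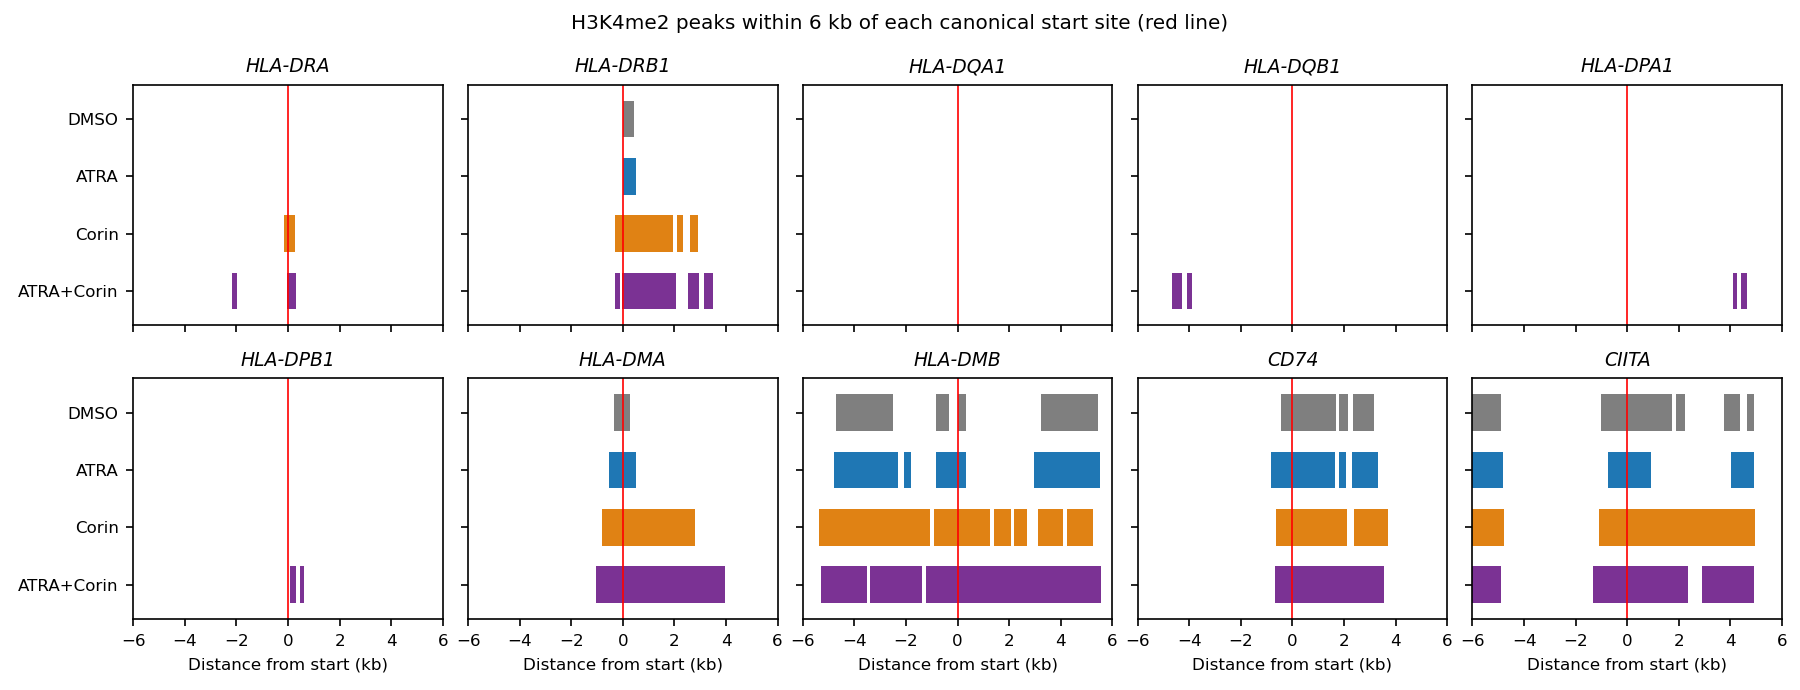
H3K4me2 peaks of the 4 lists (rows) within 6 kb of each canonical start site, by distance in kb in the direction of the gene; the red line is the start. Peaks widen into HLA-DRB1, HLA-DMA and HLA-DMB in the lists with Corin (HLA-DMA from 638 to 5002 bp), HLA-DRA has a start peak only there, and HLA-DQA1, HLA-DQB1, HLA-DPA1 and HLA-DPB1 have none over the start.

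Other genes of the pathway were read from lists. Among 5 further class II genes, HLA-DRB5 alone had its start under a peak. That peak was in Corin (947 bp) and ATRA+Corin (918 bp) and not in DMSO or ATRA. Over all genes the share of starts under a peak was 47.3%, 48.1%, 38% and 38% in DMSO, ATRA, Corin and ATRA+Corin. All 5 had a region gained in ATRA+Corin against DMSO (67.8% of all genes did). HLA-DOA, the alpha chain of HLA-DO, which restrains HLA-DM, gained the most, 4 regions, of which 3 are the same regions as those counted above for HLA-DMA and HLA-DMB. HLA-DQA2 gained 2 regions, of which 1 is also counted above for the 10 genes. The median net change was 2 regions for these 5 genes, 4 for the 10 and 1 for all genes.

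Among the 7 genes of factors that bind class II promoters, 5 start sites were under a peak in DMSO, 3 in ATRA, 2 in Corin and 2 in ATRA+Corin. RFXANK and RFXAP, subunits of RFX, were marked in every list, the RFX5 start was marked in DMSO and ATRA only, and those of NFYC and CREB1 in DMSO only. CREB1 gained the most regions, 5. The share of marked starts over all genes was also lower with Corin, 47.3% in DMSO against 38%, and the difference between the factors and other genes was not tested. A start site can lie in a gap between flanking peaks, so a start without a peak does not show a loss of the mark around it.

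Among the 7 genes that lead from interferon-gamma to CIITA, 6 start sites were under a peak in DMSO, 5 in ATRA, 3 in Corin and 2 in ATRA+Corin. The share over all genes was 47.3%, 48.1%, 38% and 38%. The receptor subunit IFNGR2 and the kinase JAK2 were marked in every list. IFNGR1 was not marked in ATRA+Corin, the kinase JAK1 was marked in DMSO and ATRA only, and IRF1 in DMSO only. The median net change of this list in ATRA+Corin against DMSO was 5 regions, against 1 for all genes. It was also 5 for the monocyte and myeloid markers and for the epithelial markers.

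Of 5 genes for class II antigen processing, 3 starts were marked in every list (CTSS, CTSB and IFI30). The share of marked starts over all genes was 47.3%, 48.1%, 38% and 38% in DMSO, ATRA, Corin and ATRA+Corin. CTSB, a lysosomal protease, gained the most regions, 6. Of 12 class I genes, 11 starts were marked in DMSO, 9 in ATRA, 7 in Corin and 7 in ATRA+Corin. HLA-C and HLA-E were marked in DMSO only, and B2M, the shared light chain of class I, and the peptide transporter subunit TAP2 in DMSO and ATRA only. B2M gained 8 regions, the most of its list. The share over all genes was lower with Corin as well (47.3%, 48.1%, 38% and 38%), and whether class I and class II starts differ could not be tested with 1 list per treatment.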

How the data were processed

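H3K4me2 ChIP-seq of U-937 cells was used as 4 peak lists, 1 per treatment, which by their deposited names hold an optimal set of peaks reproducible by overlap. Each was read as 1 list for both replicates of its treatment, and the names do not say how the replicates were combined. The submitters' processing notes name Trimmomatic, Bowtie2, Picard, MACS2 and hg38, without versions or settings. Each deposited peak has a score, a fold enrichment over input (a ratio with a pseudocount of 1), and −log10 p and −log10 q, all computed by the authors. No peak passed a chromosome end of hg38. Fold, −log10 q and fragments at a summit are printed side by side for several lists. They were not scaled for depth between lists, and no difference in them was tested.

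Peaks overlapping or touching by at least 1 bp were merged into regions. A region was gained or lost by presence in a list. No test was possible with 1 list per treatment. Fragments at a summit were solved from fold and −log10 p in 1000 sampled peaks per list (98.3% to 100% solved, tolerance 0.001), and intervals and fragments cover counting error only. The fold used to call a start peak longer was 2. The software was Python 3.11.15, pandas 2.3.3, scipy 1.17.1 and matplotlib 3.10.9, with GENCODE release 44 and RefSeq GRCh38.p14, and the merging was tested on simulated data. All 10 genes are named. Other listed genes are named if their start was marked in some lists only, or if they gained the most regions of their list in ATRA+Corin against DMSO. Named regions are those at the start sites and up to 3 strongest per comparison, and further regions were chosen after their values were seen. The pair of X and Y cores, the CIITA starts over all transcripts, the fragment counts and the comparison of start peak lengths were added after seeing the data. The genes and lists were chosen with earlier results of these data known. A few items of the lists and 1 sequence are not reported here.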

Additional observations from a re-analysis of the deposited data

How the results depend on the processing

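No paired analysis was possible because each treatment has 1 peak list without values per replicate. Neither a replicate block nor leaving out a replicate could be run. Of 140 alternative values for 22 results, 81 stayed within 1.5 times the reported value and 59 did not. The cause was not tested. In each comparison with DMSO or a single drug, a region's call depends on what counts as a peak. Leaving out regions at the starts of other genes was chosen after seeing the data.

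In ATRA+Corin against DMSO, the 26 gained regions became 16 with only peaks of −log10 q of at least 5, 13 with equal numbers of peaks per list, 17 with peaks within 1 kb merged, 11 in a 10 kb window and 13 with that −log10 q required on the gaining side. The 1 lost became 2, 3 and 0 under the first 3, 2 in a 100 kb window, 2 with single peaks and 0 with the rule on one side. In Corin against DMSO, the 15 gained became 8, 8, 9, 4 and 5 in the same order as for the gained above, and the 2 lost became 1 in a 10 kb window and 1 with the rule on one side. In ATRA against DMSO, the 6 gained became 1 in a 10 kb window and 2 with the rule on one side, and the 2 lost became 1, 0, 1, 5, 4 and 1 with strong peaks, 1 kb merging, the 10 kb window, the 100 kb window, single peaks and the rule on one side, and 1 without regions at other starts. In ATRA+Corin against ATRA, the 21 gained became 13, 10, 11, 10 and 10, and the 0 lost became 4 with strong peaks, 4 with equal numbers and 1 with single peaks. In ATRA+Corin against Corin, the 17 gained became 11, 7, 11, 9 and 4, and the 5 lost became 3, 3, 1, 2 and 1.

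Regions present in DMSO, ATRA, Corin and ATRA+Corin became 14, 14, 17 and 24 in a 10 kb window, 52 for DMSO and 70 for Corin in a 100 kb window, and 50 for DMSO with single peaks. The covered length became 30.2, 32.3, 47.0 and 52.6 kb in a 10 kb window, and 83.2 kb for DMSO and 91.95 kb for ATRA in a 100 kb window. Marked start sites in DMSO became 5 with a peak allowed within 1 kb. More peaks were called in the lists with Corin over the whole genome, and weak peaks near a threshold limit how firmly a single gained or lost region can be read.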
